A study of Mus musculus with 8 samples.

Results

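The intervals compared here are all peaks that an antibody from Synaptic Systems (SySy) called on chromatin-associated RNA (ChrRNA) of mouse embryonic stem cells, divided by whether a second antibody, from Abcam, also called them. Of 17068 deposited peaks, 10749 were SySy intervals: 5277 in Confidence group 1 (Cfg1), called with SySy and with Abcam, and 5472 in Confidence group 2 (Cfg2), called with SySy while Abcam stayed below the cutoff. The other 6319 (Cfg3) were called with Abcam only and served only as neighbors. Membership was taken from the deposited lists themselves. A SySy peak of Cfg1 is called supported below, and 49.1% of all SySy peaks were supported, the value against which every other supported share is set.

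The cells were of the E14 mouse line, without a knockout or treatment named in the labels, and every library came from this single line. RNA had been isolated from chromatin, a fraction rich in unspliced transcripts, and sequenced before (input) and after m6A immunoprecipitation (ChrMeRIP-seq). The 8 libraries formed 4 groups of 2: SySy ChrMeRIP, SySy input, Abcam ChrMeRIP and Abcam input. Each antibody had its own precipitations and inputs, so the antibody and the experiment it was used in cannot be told apart. The lists came from pooled duplicates and held no read counts, so sequencing depth is unknown here, the lists give no measure of variation between duplicates, and stem cell markers could not be checked as expression. All intervals (95%) and p-values cover the counting error of the lists only, and neighboring peaks are not independent of each other.

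N6-methyladenosine (m6A) is placed on nascent transcripts by a nuclear complex built around the METTL3 and METTL14 subunits, which recognizes the consensus DRACH, where D is A, G or T, R is A or G and H is A, C or T. It is found mostly in long internal exons and in last exons near stop codons, is bound by reader proteins of the YTH family and can be removed by the demethylases FTO and ALKBH5. Antibodies against m6A also bind m6Am, a related methylated nucleotide next to the cap of many transcripts.

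Many called regions with several summits had been split by the authors into neighboring parts, and some of these were divided between the lists. An intronic pair of such neighbors and windows of 5′ UTR peaks are shown last. The coding sequences shown first are neighbors that share a transcript, an exon and a SySy enrichment and differ in Abcam support. They are from 4 of the 5 named genes whose coding neighbors were shortest together, among 35 such neighbor pairs in named genes. Letters run 5′ to 3′ on the transcript strand of mouse assembly GRCm38.p6 (mm10), and capitals mark every DRACH pentamer. In exon 13 of the Polycomb-associated gene Asxl1 (4769 nt), the supported part at chr2:153399338-153399422 (plus strand) held 3 pentamers, 1 of them GGACT, in 85 nt, and the unsupported part at chr2:153399424-153399540 held 1 in 117 nt. GC content was 61.2% in the first and 68.4% in the second.
Asxl1 (Cfg1): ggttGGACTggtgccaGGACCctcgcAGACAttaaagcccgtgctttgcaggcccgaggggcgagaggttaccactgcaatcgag
Asxl1 (Cfg2): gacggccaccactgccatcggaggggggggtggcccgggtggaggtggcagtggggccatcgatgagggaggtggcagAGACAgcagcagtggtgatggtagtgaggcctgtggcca

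In exon 28 (3603 nt) of Rnf213, which encodes a giant ubiquitin ligase, the supported part at chr11:119441742-119441866 (plus strand) held 2 pentamers and the unsupported part at chr11:119441868-119441950 held 0. The order was the opposite in exon 8 (2340 nt) of Tnrc6b, a gene of the GW182 family of microRNA silencing factors. There the unsupported part at chr15:80879430-80879561 (plus strand) lay 5′ of the supported part at chr15:80879563-80879734 and held 7 pentamers of 6 kinds, against 6 in the supported part, which included the GGACA that its neighbor lacked.
Rnf213 (Cfg1): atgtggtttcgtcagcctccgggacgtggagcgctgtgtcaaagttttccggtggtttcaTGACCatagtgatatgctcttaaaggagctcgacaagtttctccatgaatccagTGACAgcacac
Rnf213 (Cfg2): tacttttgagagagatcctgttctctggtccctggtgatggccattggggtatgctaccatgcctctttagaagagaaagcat
Tnrc6b (Cfg2): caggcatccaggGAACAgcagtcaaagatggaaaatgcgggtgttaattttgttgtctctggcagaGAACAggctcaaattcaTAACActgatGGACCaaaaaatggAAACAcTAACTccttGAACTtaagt
Tnrc6b (Cfg1): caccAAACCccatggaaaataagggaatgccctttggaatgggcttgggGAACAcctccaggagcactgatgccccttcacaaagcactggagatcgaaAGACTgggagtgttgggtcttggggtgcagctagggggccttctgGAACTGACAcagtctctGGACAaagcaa

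The next sequences show a supported part with fewer kinds of pentamer than its neighbor. In exon 33 (7412 nt) of the cytolinker gene Plec, on the minus strand, the supported part at chr15:76176173-76176295 held TGACC 3 times, and the unsupported part at chr15:76175980-76176171 held 2 pentamers of different kinds.
Plec (Cfg1): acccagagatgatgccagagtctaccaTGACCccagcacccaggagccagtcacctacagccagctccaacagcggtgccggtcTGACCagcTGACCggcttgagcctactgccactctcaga
Plec (Cfg2): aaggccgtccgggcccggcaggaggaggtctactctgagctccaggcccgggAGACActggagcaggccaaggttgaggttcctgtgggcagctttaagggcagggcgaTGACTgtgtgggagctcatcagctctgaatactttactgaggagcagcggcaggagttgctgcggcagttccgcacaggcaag

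An intronic example came from intron 11 of Ythdc1, the gene of the nuclear m6A reader. The supported part at chr5:86829236-86829449 (plus strand) held 5 pentamers with GGACT in 2 places, while the unsupported part at chr5:86829451-86829637 held 4 pentamers and no GGACT. GC content was 38.8% in the supported and 32.6% in the unsupported part.
Ythdc1 (Cfg1): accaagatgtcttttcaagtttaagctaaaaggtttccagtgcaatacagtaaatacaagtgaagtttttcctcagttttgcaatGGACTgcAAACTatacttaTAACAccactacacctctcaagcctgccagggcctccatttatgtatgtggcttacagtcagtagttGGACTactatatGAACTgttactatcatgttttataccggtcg
Ythdc1 (Cfg2): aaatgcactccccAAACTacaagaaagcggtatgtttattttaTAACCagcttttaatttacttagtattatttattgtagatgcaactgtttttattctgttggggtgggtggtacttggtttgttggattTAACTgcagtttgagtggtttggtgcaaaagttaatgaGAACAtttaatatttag

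The last set shows GC-rich 5′ UTR sequence of first exons, where Cfg2 peaks were frequent. These are 30-nt windows around the midpoints of unsupported 5′ UTR peaks in exon 1 of 3 genes of the m6A pathway: the demethylase gene Alkbh5 (chr11:60538354-60538383, plus strand), the reader gene Hnrnpa2b1 (chr6:51469733-51469762, minus strand) and the reader gene Ythdf3 (chr3:16183351-16183380, plus strand). None of these 30-nt windows held a DRACH pentamer, and within 50 nt of the midpoint the Alkbh5 peak held 1 and the others 0. In the 30-nt windows GC content was 70% in Alkbh5 and 76.7% in the others.
Alkbh5 (Cfg2): ccctttcgggtcccctgagagccatgccgg
Hnrnpa2b1 (Cfg2): ggacgagtcccgtgcgcgtccgtccgcgga
Ythdf3 (Cfg2): gccctctccctggagcctgcgagagcggcg

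The first comparison asked where along genes SySy peaks gained Abcam support. Support was most frequent in coding sequence, lower in 3′ UTRs, introns and intergenic sequence, and lowest in 5′ UTRs. Of 5116 peaks in coding sequence (CDS), 58.7% were supported (3002 peaks), against 43.2% of 3231 peaks in 3′ UTRs (41.5 to 44.9%) and 22.5% of 400 peaks in 5′ UTRs (18.7 to 26.8%). Outside coding exons, 37.3% of 884 intronic peaks (34.2 to 40.6%) and 39.8% of 921 intergenic peaks were supported. Exons of noncoding genes, with 46.7% of 197 peaks (39.9 to 53.7%), lay close to the value over all SySy peaks. Tested by location with Fisher's exact test (2-sided, adjusted by Benjamini-Hochberg over 18 features), the shares of the lists differed with adjusted p = 3.9e-59 for CDS, 1.7e-30 for the 3′ UTR, 9.9e-33 for the 5′ UTR, 5.1e-13 for introns and 8.6e-09 for intergenic sequence. For noncoding exons the exact test gave an adjusted p of 0.25. The CDS share was higher in Cfg1, and the shares of 5′ UTR and 3′ UTR higher in Cfg2, on all 20 of 20 chromosomes. The intron difference fell from -3.87 to -2.26 percentage points with 1 peak per gene and list, the 3′ UTR difference from -12.0 to -7.88 points within genes, and the intergenic call was lost among peaks of full width (-2.89 points, exact test, adjusted p = 0.073).

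**Figure D1:**
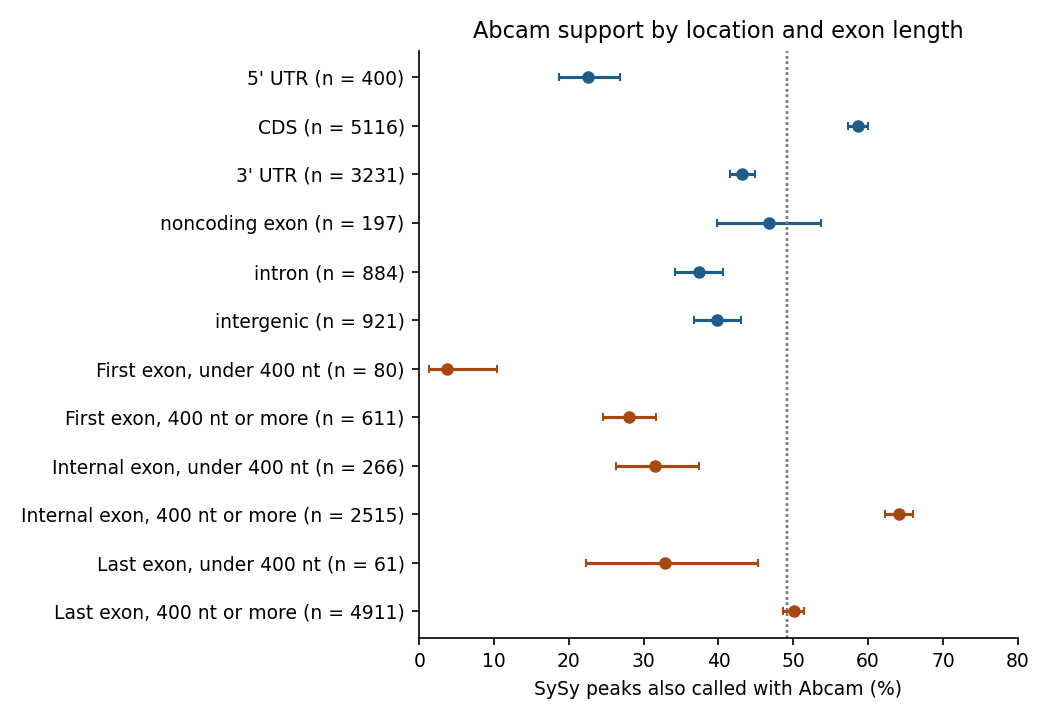
Percentage of SySy peaks that were also called with Abcam, by location of the peak midpoint (blue) and, for coding genes of several exons, by position and length of the exon (brown). Points are shares, bars 95% Wilson intervals and the dotted line the 49.1% of all SySy peaks; first exons under 400 nt (3.75%) and internal exons under 400 nt (31.6%) lie far to the left of internal exons of 400 nt or more (64.2%).

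Exon position divided the lists further. Of 691 peaks in first exons of coding genes with several exons, 25.2% were supported (22.1 to 28.5%), against 61.1% of peaks in internal exons and 49.8% in last exons. First exons held 4.0% of Cfg1 peaks (174 of 4350) and 12.6% of Cfg2 peaks (517 of 4094), a difference of -8.63 percentage points (-9.81 to -7.46, Fisher's exact test after adjustment, p = 5.5e-48). It had the same direction on 20 of 20 chromosomes. Last exons held a slightly smaller share of Cfg1 than of Cfg2 (-3.95 points, exact test, adjusted p = 0.00036), and with 1 peak per gene and list the difference was -2.40 points (exact test, adjusted p = 0.11). Within genes it was +0.84 points (Cochran-Mantel-Haenszel chi-square test, used here for all differences within strata, adjusted p = 0.53).

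Within first exons, support rose with distance from the transcript start. Of 11 peaks in the first 50 nt, 0 were supported (interval 0 to 25.9%), and of 17 peaks between 50 and 100 nt, 1 was. The share was 8.67% of 150 peaks at 100 to 200 nt (5.14 to 14.3%), 8.22% of 146 at 200 to 400 nt, 26.5% of 162 at 400 to 800 nt (20.3 to 33.8%) and 51.2% of 205 at 800 nt or more (44.4 to 58.0%). Peaks deep in a long first exon were thus supported about as often as SySy peaks in general. The length of the exon sorted them likewise: 3 of 80 peaks in first exons under 400 nt were supported (3.75%) and 171 of 611 in longer ones (28.0%). Within first exons, 12.3% of 5′ UTR peaks (34 of 276) and 34.0% of CDS peaks (140 of 412) were supported, while 5′ UTR peaks in internal exons reached 48.3% (42 of 87).

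**Figure D2:**
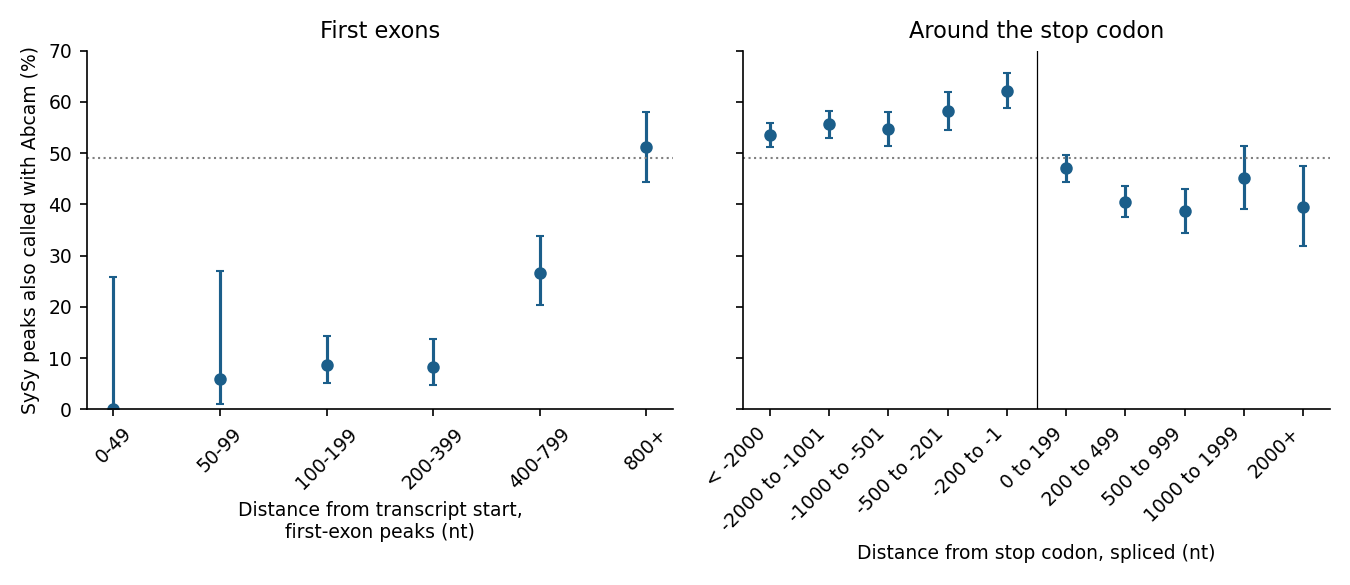
Percentage of SySy peaks also called with Abcam, on the left for first-exon peaks by distance from the transcript start and on the right for exonic peaks of coding genes by spliced distance from the stop codon (vertical line), both in nt. Points are shares with 95% Wilson intervals and the dotted line is 49.1%; the left panel climbs from 0% in the first 50 nt to 51.2% at 800 nt or more, and the right panel falls from 62.2% just before the stop codon to 47.0% just after it.

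The GC content of the RNA around the peak midpoint, taken over 101 nt, separated the lists strongly at its upper end. Support was highest between 45 and 55% GC, where it was 57.6% and 58.5% in classes of 5 percentage points, and lower on both sides. It fell to 40.7% at 60 to 65% GC, to 16.3% at 65 to 70% (64 of 392 peaks) and to 3.56% at 70% or more (14 of 393). At the other end, below 35% GC, it was 32.1%. Windows of 65% GC or more made up 1.48% of Cfg1 (78 peaks) and 12.9% of Cfg2 (707 peaks). These classes were set after the values had been seen and carry no test. Over all windows, 46.7% of Cfg1 and 51.4% of Cfg2 windows lay above the median of 50.5% GC (-4.70 points, Fisher's exact test adjusted over 24 sequence features, adjusted p = 2.8e-06). Within genes this difference was -0.55 points (chi-square test, adjusted p = 0.65) and within regions that held both lists +2.18 (adjusted p = 0.27).

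The drop at high GC was not confined to first exons. At 70% GC or more, support was 2.27% of 132 peaks in 5′ UTRs, 2.79% of 179 in CDS, 2 of 25 peaks in introns and 7.32% of 41 in intergenic sequence. Few such peaks lay in 3′ UTRs (1 of 11 supported) and noncoding exons (0 of 5). In 3′ UTRs support was 37.7% of 273 peaks at 60 to 70% GC, against 43.8% of 2947 under 60%. With first-exon peaks left out it was 5.13% (8 of 156) at 70% or more and 20.1% (59 of 293) at 65 to 70%. First-exon peaks under 60% GC were supported about as often as all SySy peaks under that limit: 139 of 264 (52.7%, 46.6 to 58.6%), against 53.5% of 8971. Among peaks under 60% GC, the share was 66.4% in internal exons and 51.2% in last exons. Of first-exon peaks at 60 to 70% GC, 15.3% of 190 were supported, and at 70% or more 2.53% of 237.

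GC content therefore moved with the deficit of first exons, and the difference was recomputed within GC classes, an alternative added after the data had been seen. Stratified by GC class, the first-exon difference was -2.16 points (-3.13 to -1.19, chi-square test, adjusted p = 1.9e-05) in place of -8.63, and the 5′ UTR difference -1.87 points (-2.62 to -1.12, adjusted p = 2.2e-06) in place of -5.27. Both stayed past the threshold. First-exon peaks were also divided into classes under 60% GC and at 60% or more. In both, support was highest at 800 nt or more from the start, though under 60% it did not rise steadily. These classes are broad, and whether GC still varied with distance inside them was not tested. Under 60% GC, support was 23.3% of 30 peaks at 200 to 400 nt, 45.5% of 66 at 400 to 800 nt and 66.4% of 134 at 800 nt or more, though 44.4% of 27 at 100 to 200 nt. At 60% GC or more it was 0.813% of 123 peaks at 100 to 200 nt and 22.5% of 71 at 800 nt or more. The CDS and 3′ UTR differences did not shrink within GC classes, at +18.8 and -16.9 points. The Abcam and SySy libraries differed in antibody, precipitation and, by the study's methods, library kit, and which of these the GC dependence belongs to cannot be told apart.

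Peaks within 125 nt of any annotated start on their strand included transcript starts other than that of the representative transcript. They made up 3.81% of Cfg1 (201 peaks) and 6.20% of Cfg2 (339 peaks), a difference of -2.39 points (Fisher's exact test after adjustment, p = 2.5e-08). Support near a start depended on what the sequence was: 15.1% of 5′ UTR peaks there were supported (18 of 119), and 50.0% of CDS peaks (141 of 282). Within GC classes the difference near starts was -0.43 points (chi-square test, adjusted p = 0.32), within genes -1.22 (adjusted p = 0.071) and among full-width peaks -1.58 (Fisher's exact test, adjusted p = 0.21).

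Internal exons, the exons between the first and the last, were divided by length. Of 2515 peaks in internal exons of 400 nt or more, 64.2% were supported (62.3 to 66.0%), and of 266 peaks in shorter ones 31.6% (26.3 to 37.4%). Long exons held 95.1% of internal-exon peaks in Cfg1 (1614 of 1698) and 83.2% in Cfg2 (901 of 1083), a difference of 11.9 points (9.46 to 14.4, Fisher's exact test after adjustment, p = 4.5e-24). The change came at the short end: support was 6 of 67 peaks (9.0%) in exons of 100 to 200 nt and 39.6% of 197 in exons of 200 to 400 nt, then 65.7%, 64.5%, 63.1% and 60.4% in classes that doubled in length from 400 to 800 nt up to 3200 nt or more. Within genes the difference was 7.71 points (chi-square test, adjusted p = 1.5e-09). Under 60% GC, short and long internal exons had 35.8% and 69.6% of their peaks supported, so the gap was there at moderate GC too. Among full-width peaks the difference was 3.62 points (exact test, adjusted p = 0.21).

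Support was also lower beside exon junctions in internal and last exons. In internal exons, 21.3% of 122 peaks whose midpoint lay under 50 nt from the nearest junction were supported, rising to 46.2% at 50 to 100 nt, 58.2% at 100 to 200 nt and 68.6% at 200 to 400 nt, and staying at 63.9% and 63.0% farther in. In internal exons of 400 nt or more alone, the same classes began at 35.7% of 28 peaks (20.7 to 54.2%) and 60.8% of 97. They went on at 59.6% and 68.6%. Beyond 50 nt the rise was thus smaller there, and the classes over all internal exons include the short exons of low support. In last exons 7 of 26 peaks under 50 nt from the junction were supported (26.9%), and the classes beyond ranged from 47.4 to 52.1%. First exons showed no such dip, with 22.2% of 9 peaks under 50 nt from the junction supported, 17.9% of 28 at 50 to 100 nt, 18.7% both at 100 to 200 and at 200 to 400 nt, and 27.7% and 38.2% farther away.

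In last exons, the border between coding sequence and 3′ UTR separated the lists. Of last-exon peaks in CDS, 61.8% were supported (1131 of 1830), and of those in the 3′ UTR 42.8% (1339 of 3127). Along the spliced transcript, support was 62.2% in the 200 nt before the stop codon (479 of 770) and 47.0% in the 200 nt after it (616 of 1310), then 40.5% at 200 to 500 nt and 38.7% at 500 to 1000 nt. Relative to the stop codon, the median peak lay at -472.5 nt in Cfg1 and at -200 nt in Cfg2. At the other end of the coding sequence, the first of 10 equal stretches had 40.1% of its peaks supported (180 of 449), and the other stretches between 54.9 and 63.5%.

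The share of peaks within 200 nt of the stop codon was 24.4% in Cfg1 and 23.2% in Cfg2, a difference of 1.20 points that did not pass the exact test (adjusted p = 0.23). Its sign depended on how a peak was placed. It was +3.50 points by the 3′ ends of the intervals (exact test, adjusted p = 6.8e-05) and -2.66 by their 5′ ends (adjusted p = 0.0071). It was +3.60 points within genes (chi-square test, adjusted p = 0.0045) and -0.73 within GC classes (adjusted p = 0.47). Among 3′ UTR peaks the share lying over 1000 nt past the stop codon differed by -0.10 points (exact test, adjusted p = 0.96).

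Intronic peaks were supported less often when they lay early in the intron or in the first intron. Of peaks in first introns 30.4% were supported (76 of 250), and in later introns 40.1% (254 of 634). Within 500 nt of the 5′ splice site, 30.9% of 265 peaks were supported, and such peaks made up 24.8% of intronic Cfg1 and 33.0% of intronic Cfg2 peaks (-8.18 points, Fisher's exact test after adjustment, p = 0.017). That call was lost within genes (-2.25 points, chi-square test, adjusted p = 0.62), within GC classes (-5.95, adjusted p = 0.083) and when the 3′ end placed the peak (+0.34, exact test, adjusted p = 0.95). The median distance from the 5′ splice site was 2034.5 nt in Cfg1 and 1472.5 nt in Cfg2. Intronic midpoints in repeat-masked sequence had 51.3% supported (97 of 189), against 33.5% of other intronic peaks. Intronic positions that are exonic in another transcript did not differ between the lists beyond the counting error (41.2 and 36.1%, exact test, adjusted p = 0.17).

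Intergenic peaks opposite an annotated gene were mostly unsupported. Peaks antisense to a gene made up 11.7% of intergenic Cfg1 (43 peaks) and 23.6% of intergenic Cfg2 peaks (131 peaks), a difference of -11.9 points (Fisher's exact test after adjustment, p = 7.5e-06), and 24.7% of them were supported. Within GC classes the difference was -12.6 points (chi-square test, adjusted p = 3.1e-06), and among full-width peaks -7.68 (exact test, adjusted p = 0.38). The share within 5000 nt downstream of a gene end differed by -1.72 points (exact test, adjusted p = 0.67).

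The second comparison asked which sequences went with Abcam support. The 18 DRACH pentamers were each searched on the strand of the peak within 50 nt of its midpoint, overlaps allowed, so that interval width could not add matches. All 18 were more frequent in Cfg1 than in Cfg2, and the differences of 12 passed Fisher's exact test after adjustment over 24 sequence features, while 0 passed in the other direction. Any DRACH pentamer was present in 96.8% of Cfg1 and 92.8% of Cfg2 windows (4.07 points, exact test, adjusted p = 2e-20).

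The pentamers that separated the lists most ended in ACA rather than in the ACT of the GGACT core. GGACA was found in 24.6% of Cfg1 windows (1298 peaks) and 17.1% of Cfg2 windows (938 peaks), a difference of 7.46 points (5.92 to 8.99, Fisher's exact test after adjustment, p = 2e-20). AGACA followed with 19.6 and 13.6% (6.02 points, exact test, adjusted p = 4.3e-16) and GAACA with a difference of 4.5 points (adjusted p = 1.4e-11). GGACT, the best known m6A pentamer, was found in 25% of Cfg1 and 22.9% of Cfg2 windows, a difference of 2.06 points (exact test, adjusted p = 0.019). Of GGACA windows 58.1% were supported, and of GGACT windows 51.2%. The GGACA difference kept its call under all alternatives tried. That of GGACT lost it in windows of 25 nt on either side (1.1 points, exact test, adjusted p = 0.13) and at full width (-1.17, adjusted p = 0.72), and also by width class (1.47, chi-square test, adjusted p = 0.11) and by GC class (1.45, adjusted p = 0.13). It was larger within genes (5.80 points, chi-square test, adjusted p = 4.3e-06) and within regions that held both lists (9.11, adjusted p = 2.5e-06). The pentamers that begin with TA did not pass, with an adjusted p by the exact test of 0.095 for TAACA, of 0.21 for TAACC and of 0.71 for TAACT. Nor did AGACC (exact test, adjusted p = 0.085), TGACC (0.095) and TGACT (0.17).

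Support rose with the number of different DRACH pentamers in the window. It was 29.7% with none (167 of 563 peaks), 39.5% with 1, 46.1% with 2, 53.0% with 3, 60.6% with 4, 65.8% with 5 and 75.8% with 6 (94 of 124 peaks). The rise was seen at every location: with 4 or more kinds, against fewer, support was 54.1 and 19.3% in 5′ UTRs, 75.1 and 55% in CDS, 56.0 and 39.7% in 3′ UTRs, 50.5 and 33.8% in introns, and 48.9 and 37.0% in intergenic sequence. GGACA alone sorted peaks in the same way, with 67.6 against 56.2% in CDS and 47.9 against 34.9% in introns. In GC-rich sequence the consensus did little to raise the share. At 70% GC or more, 4 of 108 windows without a pentamer were supported, 3 of 181 with 1 kind and 7 of 104 with more.

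Homopolymer runs differed between the lists too. TTTT was found in 25.1% of Cfg1 and 30.6% of Cfg2 windows (-5.45 points, Fisher's exact test after adjustment, p = 1.6e-09), a difference of -0.98 points over the deposited intervals (exact test, adjusted p = 0.31). AAAAA was more frequent in Cfg1 by 2.5 points (exact test, adjusted p = 7.7e-05), a call lost within genes (1.54 points, chi-square test, adjusted p = 0.13) and with a sign change within regions that held both lists (-1.34 points, adjusted p = 0.40).

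Cfg1 intervals were wider. The median was 198 nt (quartiles 154 and 246) in Cfg1 and 159 nt (125 and 203) in Cfg2, and the upper limit of 250 nt was reached by 23.9% of Cfg1 and 9.85% of Cfg2 intervals. Of full-width peaks 70.1% were supported, and of narrower ones 44.9%. This ran through all locations, with 76.5 against 54.6% in CDS and 42.0 against 19.7% in 5′ UTRs. A wide interval overlaps an Abcam peak more easily, so width is not independent of how the lists were made, and it was not tested.

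**Figure D3:**
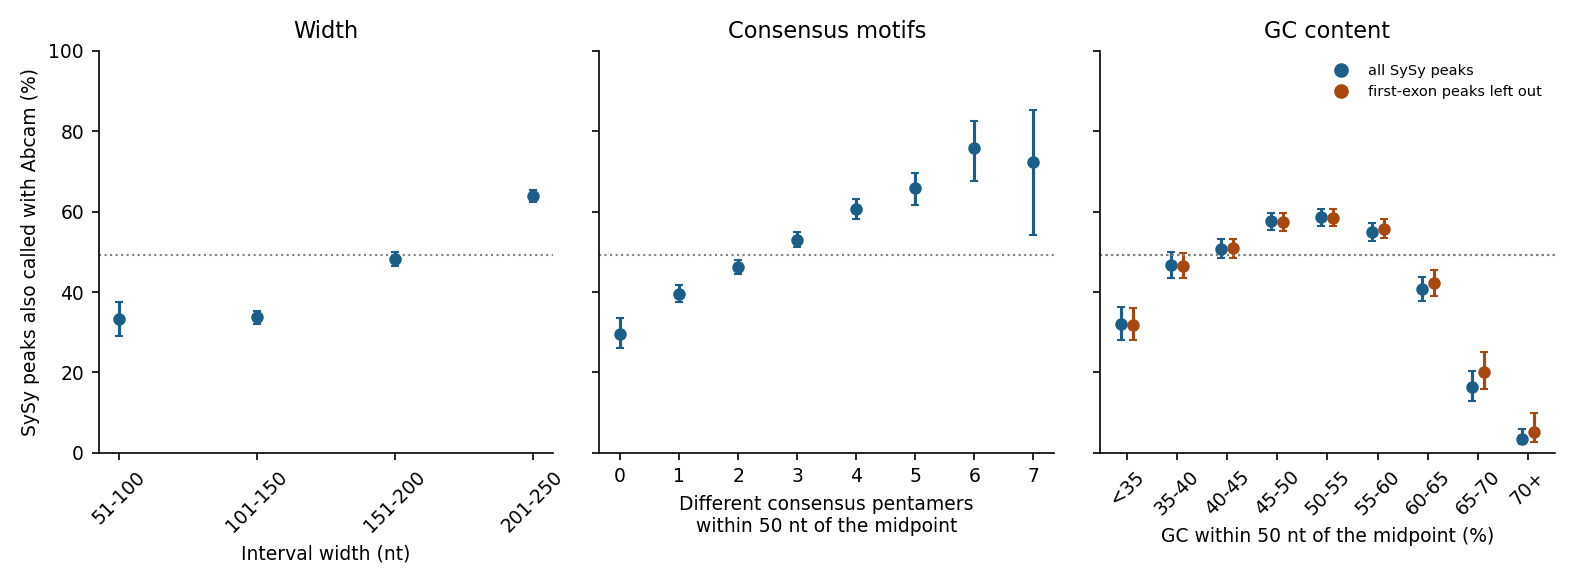
Percentage of SySy peaks also called with Abcam, by interval width in nt (left), by the number of different DRACH pentamers within 50 nt of the midpoint (middle) and by GC content of the same 101-nt window in percent (right; all peaks in blue, first-exon peaks left out in brown). Points are shares with 95% Wilson intervals, the dotted line is 49.1%, and classes under 20 peaks are not drawn; the middle panel rises from 29.7% to over 70%, while the right panel peaks at 58.5% and drops to 3.56% (5.13% without first exons) at 70% GC or more.

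The third comparison followed support within single called regions, whose parts share the transcript and the local SySy signal. The SySy peaks came from 7465 regions, of which 2250 had been split into several peaks. Peaks of unsplit regions were supported in 43.4% of cases (2261 of 5215), and the share was 51.6% in regions of 2 peaks, 57.5% in regions of 3 and 59.2% in regions of 4. Peaks from split regions made up 57.2% of Cfg1 and 46.0% of Cfg2 (11.1 points, Fisher's exact test after adjustment, p = 2.5e-30). Neighboring parts can fall under the same Abcam peak, so this feature, like width, is not independent of how the lists were made. The test also counted parts of 1 region as separate peaks. Support was often shared: of 1580 regions of 2 peaks, 636 had both in Cfg1, 584 had both in Cfg2 and 360 had 1 of each. Of the regions of 3 or more peaks, 175 lay wholly in Cfg1, 109 wholly in Cfg2 and 386 in both.

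Within mixed regions the supported part tended to lie on the 5′ side. Of 355 pairs of 1 Cfg1 and 1 Cfg2 part on the same strand, the Cfg1 part lay 5′ in 254 (71.5%, 66.6 to 76.0%). The share was 63.5% of 148 pairs on the plus strand (55.5 to 70.8%) and 77.3% of 207 on the minus strand (71.1 to 82.5%). It was above 50% on each, but the intervals of the strands did not overlap, and the reason for this was not tested. By location, the share was 64.4% of 135 pairs within CDS and 76.5% of 119 within 3′ UTRs. The Cfg1 part was the wider one in 71.3% of pairs, and it lay 5′ in 73.1% of those pairs and in 67.6% of the others. In regions of 3 or more peaks, 66.6% of 5′ outermost parts were supported (444 of 667), 62.1% of inner parts and 44.4% of 3′ outermost parts (296 of 667). Whole genes with exonic peaks of both lists showed less of an order at their 5′ end: support was 55.2% for the 5′-most exonic peak, 59.5% for those between and 41.9% for the 3′-most, in 1121 genes.

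The consensus also distinguished the members of a pair. The Cfg1 part held more kinds of DRACH pentamer in 208 of 355 pairs (58.6%, 53.4 to 63.6%), the Cfg2 part in 70 (19.7%), and 77 pairs were equal. GGACT was only in the Cfg1 part in 81 pairs and only in the Cfg2 part in 39. For GGACA these counts were 84 and 33, for GAACT 65 and 29, and for AGACA 68 and 33. Stratified by region over all 746 mixed regions (2158 peaks), the GGACA difference was 11.2 points (chi-square test, adjusted p = 1.9e-08).

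**Figure D4:**
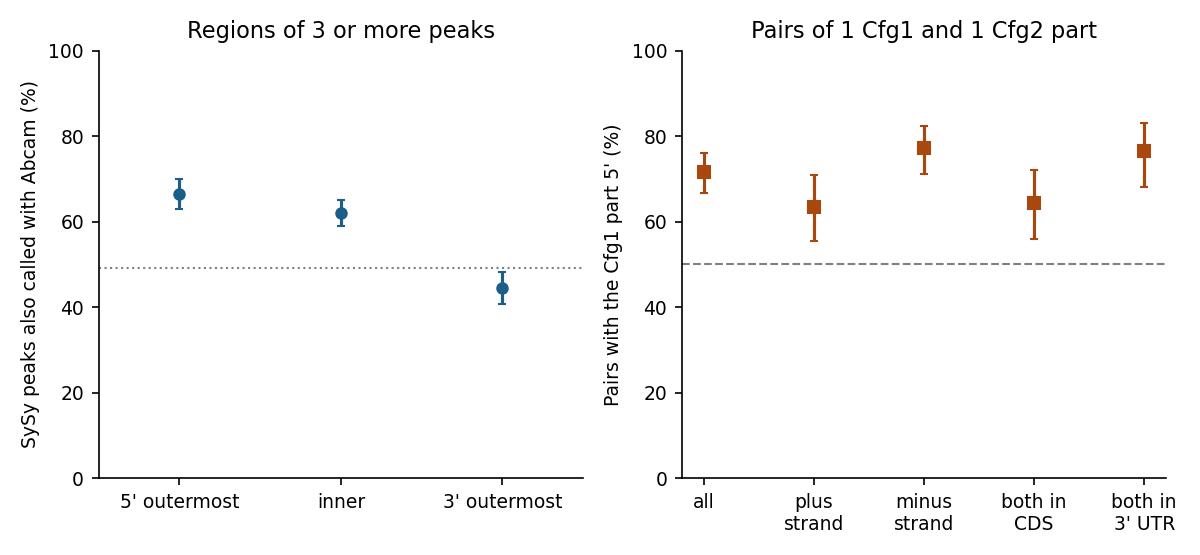
Left, percentage of SySy peaks also called with Abcam among the 5′ outermost, inner and 3′ outermost parts of regions split into 3 or more peaks (dotted line 49.1%). Right, percentage of pairs of 1 Cfg1 and 1 Cfg2 part in which the Cfg1 part lies 5′, for all 355 pairs and by strand or location (dashed line 50%); bars are 95% Wilson intervals, and all 5 shares lie above the dashed line, from 63.5 to 77.3%.

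Another SySy peak lay within 500 nt of 63.9% of Cfg1 and 53.8% of Cfg2 peaks (10.1 points, Fisher's exact test after adjustment, p = 7.9e-26), though among regions of a single peak the difference was 1.43 points (exact test, adjusted p = 0.21). A Cfg3 peak, called with Abcam only, lay within 500 nt of 896 SySy peaks, of which 63.7% were supported, against 47.8% of the others.

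Support was next followed by gene. A SySy peak lay in 4234 genes: 1322 had only Cfg1 peaks, 1646 only Cfg2 peaks and 1266 both. Of 716 genes with 4 or more SySy peaks, 602 held both lists, 58 were wholly supported and 56 wholly unsupported. Of the 4918 Cfg2 peaks in genes, 50.5% lay in a gene that also held a Cfg1 peak, and 65.2% in a gene with any Abcam-called peak. These 2 shares depend on how many peaks a gene holds, and no expected share was computed. Of 968 genes with 2 SySy peaks, 308 were wholly supported, 343 wholly unsupported and 317 held both lists.

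Among genes wholly supported, the one with the most peaks was Trps1, a GATA-type repressor gene, with 9 Cfg1 peaks in coding exons of 604 to 3308 nt and window GC between 42.6 and 51.5%. The histone methyltransferase gene Ash1l held 7 Cfg1 peaks in exons of 517, 736 and 4558 nt, the chromatin remodeler gene Chd9 held 7 and its relative Chd8 held 6. Slx4, a scaffold of DNA repair nucleases, held 6, of which 2 were in intron 1. Kat14 and Zrsr1 also held 6, and Adnp2, Adpgk and BC002059 held 5. Windows over 60% GC were rare in these genes, with 1 in Adpgk and 1 in Zrsr1.

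Among genes wholly unsupported, Klf4, a pluripotency factor gene, led with 10 Cfg2 peaks spread over its 5′ UTR, 2 introns, exon 3 (985 nt) and its 3′ UTR. Their GC content ran from 35.6 to 69.3%, and 6 lay under 60% GC. Rbmxl2, a single-exon gene for an RNA-binding protein, held 6 Cfg2 peaks, 5 of them between 71.3 and 86.1% GC. Fbxl18, an F-box gene, held 7, of which 4 were at or above 60% GC, and Kank3 held 5, of which 3 were. In contrast, the noncoding gene Platr22 (7 peaks), Bmf (5), Ankrd6 (5) and Arglu1 (5) held only Cfg2 peaks without a window at or above 60% GC. Entr1 held 8 and the methyltransferase gene Dot1l held 5.

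Genes that held many peaks of both lists showed where support changed along a transcript. In Tnrc6c, a GW182 gene, all 10 Cfg1 peaks lay in exon 5 (2601 nt), with GC between 50.5 and 64.4%. Its 10 Cfg2 peaks lay elsewhere: 2 in the 5′ UTR of exon 1 (519 nt) at 85.1% GC, 4 in introns and 4 in the last exon. Each stretch of the gene thus belonged to 1 list. In Mtcl1, a microtubule crosslinking factor gene, all 5 peaks of exon 1 (1434 nt) were Cfg2, at 70.3 to 82.2% GC, and 6 of 7 Cfg1 peaks lay in exons 5 and 13, between 56.4 and 65.3%. In Plec, 12 of 16 Cfg2 and 6 of 7 Cfg1 windows were at 60% GC or more, so in this gene GC did not sort them. Spen (18 Cfg1 and 9 Cfg2 peaks), Rnf213 (10 and 7), Ahnak (10 and 8) and Kmt2d (12 and 6) held more Cfg1 than Cfg2 peaks, and Macf1 (9 and 14) and Zfp704 (8 and 15) more Cfg2.

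Lists of genes were described by the share of their SySy peaks that were supported, beside the 49.1% of all, with no test. Chromatin and repair genes had higher values: DNA repair genes had 64.3% of 84 peaks supported (53.6 to 73.7%), Polycomb genes 62.2% of 45 (47.6 to 74.9%), histone methyltransferases 61.7% of 120 (52.7 to 69.9%) and chromatin remodelers 60.5% of 86 (49.9 to 70.1%). Histone demethylases (47.6%), GW182 and microRNA silencing genes (47.7%) and named long noncoding RNAs (50.0%) lay beside it. Pluripotency factors (42.3%, 29.9 to 55.8%), TGF-beta signaling genes (41.7%, 28.9 to 55.7%) and immediate early genes (31.0% of 29, 17.3 to 49.2%) had lower values whose intervals took in 49.1%, as did that of the Polycomb genes. The interval of splicing factors of the serine and arginine-rich (SR) family lay below it (4 of 20, 8.07 to 41.6%).

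**Figure D5:**
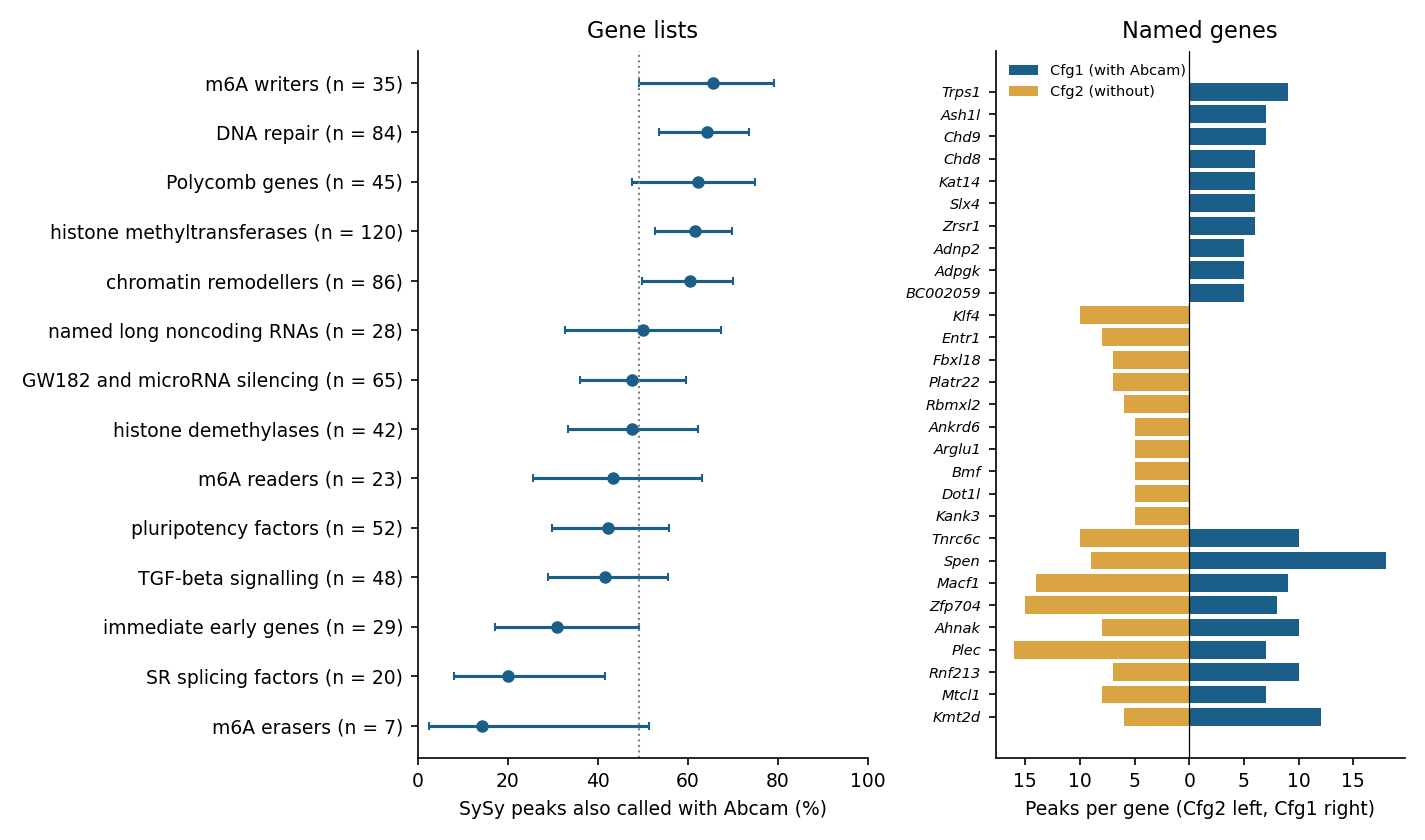
Left, percentage of SySy peaks also called with Abcam in each list of genes, with the number of SySy peaks, 95% Wilson intervals and the dotted line at 49.1%. Right, Cfg1 peaks (bars to the right) and Cfg2 peaks (bars to the left) per gene, for the 10 genes with the most Cfg1 peaks and no Cfg2 peak, the 10 with the most Cfg2 peaks and no Cfg1 peak and 9 of the 10 with the most of both; Trps1 (9 and 0), Klf4 (0 and 10) and Tnrc6c (10 and 10) head these groups.

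GC content went with part of the low support of some lists of genes, but not with the high support of Polycomb genes. Of the SR family's 16 Cfg2 peaks 10 were at 60% GC or more, of the immediate early genes' 20 it was 13, and of the Polycomb genes' 17 it was 9. Under 60% GC, support was 4 of 10 peaks in SR genes, 50.0% in immediate early genes (7 of 14), 52.5% in pluripotency genes (21 of 40) and 74.2% in Polycomb genes (23 of 31), beside 53.5% of all SySy peaks under that limit. The SR, immediate early and pluripotency shares thus lay closer to that of all peaks, and the Polycomb share farther above it. Histone methyltransferases had 68.75% supported under that limit, and TGF-beta signaling genes 45.45%. All 4 supported SR peaks lay in Son, in the 5970-nt exon 3.

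The genes of the m6A pathway itself are given by role, with no test between the roles, whose intervals overlapped. Of the writer genes, 7 of 12 held SySy peaks, with 23 Cfg1 and 12 Cfg2 peaks (65.7%, 49.2 to 79.2%), and 23 of their 29 peaks under 60% GC were supported (79.3%). Rbm15, which encodes an RNA-binding adaptor of the complex, held 9 Cfg1 and 6 Cfg2 peaks. In its 3459-nt exon 1, the 4 parts nearest the transcript start were Cfg2 at 62.4 to 72.3% GC, and 8 of the 9 parts 3′ of them were Cfg1 at 45.5 to 58.4%. The adaptor gene Wtap held 3 Cfg1 and the ubiquitin ligase gene Cbll1 2 Cfg1 peaks, with 0 Cfg2 peaks in either. Rbm15b held 4 and 1, Zc3h13 3 and 2, and Virma 2 and 2. Pcif1, which encodes the m6Am methyltransferase, held 1 Cfg2 peak, in its 3′ UTR.

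Reader genes had 10 Cfg1 and 13 Cfg2 peaks (43.5%, 25.6 to 63.2%). The nuclear reader gene Ythdc1 held 3 and 1, the cytoplasmic reader genes Ythdf2 3 and 2, Ythdf3 2 and 4, and Ythdf1 0 and 3, and Prrc2a 2 and 2. The Ythdf1 peaks lay in exon 5 (1521 nt) between 47.5 and 54.5% GC, a long exon at moderate GC without support. The eraser genes had 1 supported peak among 7 (14.3%, 2.57 to 51.3%): Alkbh5 held 4 Cfg2 peaks, 3 of them at 60% GC or more, and Fto held 1 Cfg1 and 2 Cfg2 peaks in exon 3 (619 nt), all parts of 1 region. The numbers of peaks in these groups are small, and the readers' and erasers' intervals include 49.1%, as does the writers' interval when each peak is placed on the longest transcript (64.5%, 46.9 to 78.9%).

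Several regulators of chromatin and cell fate repeated the arrangement of Rbm15, with unsupported peaks in a GC-rich first exon and supported ones farther 3′. Asxl2 held 2 Cfg2 peaks in the 5′ UTR of exon 1 (356 nt) at 66.3 and 67.3% GC and 7 Cfg1 peaks in its last exon (6869 nt) at 42.6 to 54.5%. Arid1a, a SWI/SNF subunit gene, held 4 Cfg2 peaks in exon 1 (1143 nt) at 75.2 to 84.2% GC, and in exon 20 (3048 nt) 4 Cfg1 and 1 Cfg2 peaks at 45.5 to 58.4%. Inhbb, which encodes an activin subunit, held 4 Cfg2 peaks in exon 1 (1622 nt) at 66.3 to 74.3% GC, and 3 Cfg1 and 1 Cfg2 peaks in exon 2. In that exon 2 the Cfg1 windows were at 53.5 to 65.3% GC and the Cfg2 window lower, at 51.5%. In the antiapoptotic gene Mcl1, 3 Cfg2 peaks lay in exon 1 (700 nt) at 70.3 to 74.3% GC, and 2 Cfg1 peaks and 1 more Cfg2 peak lay downstream at 41.6 to 43.6%. These 4 genes were picked out after their values had been seen. Trim71 followed this arrangement only in part. Its exon 1 (2065 nt) held Cfg2 peaks at 65.35, 78.22 and 79.21% GC, and its 1 Cfg1 peak, in the 5′ UTR, at 60.4%. Farther 3′, its peaks in exon 4 (6964 nt) were all Cfg2, at 50.5 to 61.4%.

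Short exons gave the counterpart in the methyltransferase gene Kmt2b, also picked out afterwards. All 3 of its Cfg1 peaks lay in its long exons 3 (2036 nt) and 28 (1300 nt). Of its 7 Cfg2 peaks 4 lay in exons of 161, 185, 279 and 280 nt, and the other 3 in the same long exons as the Cfg1 peaks. The related gene Kmt2a held 9 Cfg1 peaks and 1 Cfg2 peak. Other named genes held Cfg1 peaks in short exons. Bptf held Cfg1 peaks in exons of 210 and 224 nt. Its exons of 2308 and 823 nt held both Cfg1 peaks and its coding Cfg2 peaks. Cfg1 peaks also lay in exons of 256 nt in Chd9, 386 nt in Chd8 and 321 nt in Spen.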

How the data were processed

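E14 ChrMeRIP and input libraries (8, in 4 groups of 2) had been processed by the authors into 3 peak lists. According to the processing notes of the submitters and the methods, MACS2 2.1.1 called peaks on pooled duplicates of each antibody against input, regions were split between summits and trimmed, and the strand with stronger enrichment was kept. HOMER is also named there. The deposited score column was 0 for every peak and was not used. The labels name the same library kit for all samples, whereas the methods name different kits for the antibodies. Supplied values thus were coordinates, strand and name only. In 1 Cfg2 entry a stray strand character was read as plus.

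Peaks were placed by their midpoint on GRCm38.p6 (mm10) with GENCODE vM21, using for each of 35240 genes the transcript of longest CDS (of noncoding genes, the longest) (1500 of 1500 transcripts compared matched the reference). Shares were compared with two-sided Fisher's exact tests, Benjamini-Hochberg adjusted over 18 location and 24 sequence features (threshold 0.05). Stratified differences are Mantel-Haenszel estimates with the Cochran-Mantel-Haenszel chi-square test. Intervals of shares are Wilson intervals, those of differences follow Newcombe or, within strata, the standard error. Scripts were tested on simulated data. A gene and a sequence that these rules take in are not reported here. The named genes were the 10 with the most peaks of either list alone or of both (predicted genes left out), all m6A genes and up to 3 genes per other list. The members, tests and lists of genes were chosen with earlier results of these data known. Alternatives covered 1 peak per gene, strata of gene, width, location and region, full-width peaks, the longest transcript, interval ends and window size; single-summit regions, strata of width with location, and GC strata were added after the data had been seen. Python 3.11.15, numpy 2.4.6, scipy 1.17.1, pandas 2.3.3 and matplotlib 3.10.9 were used.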

Additional observations from a re-analysis of the deposited data

How the results depend on the processing

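Over 58 results and 482 alternatives, 376 kept direction and side of the threshold, 52 lost the threshold, 26 gained it, 27 changed sign and 1 count moved by over 1.5 times. The calls for intron, 5′ UTR, CDS, 3′ UTR, first exon, regions with several summits, any DRACH, GGACA and 4 other pentamers (AGACA as well as AGACT, and both GAACA and also GAACT) held under every alternative run for them. Values below are Cfg1 minus Cfg2 in percentage points. Near an annotated start the difference was -1.22 within genes, -1.58 at full width and -0.43 within GC classes, none past the threshold. Near the stop codon it was 3.30 with 1 peak per gene and list, 3.60 within genes, 3.50 by 3′ ends, -2.66 by 5′ ends and -0.73 within GC classes. Another SySy peak nearby gave 1.43 in single-summit regions. GGACT gave 1.1 in the 25-nt window, 2.25 with 1 peak per gene and list, 1.47 by width, -1.17 at full width, 2.37 in single-summit regions and 1.45 by GC. TTTT gave -0.98 over deposited intervals, and GC above the median -0.55 within genes and 2.18 within mixed regions. At full width 7 pentamers were more frequent in Cfg1 in place of 12, and 0 passed the threshold toward Cfg2 under any alternative. Of results that changed sign without being past the threshold afterwards, noncoding exons gave 0.28 with the longest transcript, and distal 3′ UTRs 0.36 by width, 0.78 at full width, 1.28 with the longest transcript, 0.80 by 5′ ends and 0.049 in single-summit regions. Last exons gave 0.84 within genes, 5′ splice site proximity 0.34 by 3′ ends, exons of other transcripts -0.70 in single-summit regions, and sequence downstream of genes 16.9 at full width and 1.69 with the longest transcript. AGACC gave -2.88, more than 1 GGACT -0.34 and GGACT near the midpoint -0.41 at full width. Within mixed regions TAACA gave -0.14, the difference for TAACC was -0.51, that for TAACT was -0.39 and that for AAAAA was -1.34. Within genes TAACC gave -0.33 and in single-summit regions -0.22. By width TAACT gave -0.003, and by GC -0.21, where TGACT gave -0.95. The causes were not tested. No paired analysis was possible because duplicates had been pooled before the calls, and for the same reason no replicate could be left out in turn and no stricter calling threshold could be set.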

Other observations

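Repeat-masked sequence as a whole did not set the lists apart: 50.8% of the 901 SySy peaks with a repeat-masked midpoint were supported, and 48.9% of the others. In exons of noncoding genes 21 of 26 peaks in repeats were supported (80.8%), against 41.5% of other peaks there. In CDS it was 151 of 224 (67.4%), against 58.3%. Only in 3′ UTRs was the share lower in repeats (86 of 220, 39.1%, against 43.5%). Coding genes of a single exon had 45.5% of 303 peaks supported. Support rose with the number of SySy peaks in a gene, from 42.6% of peaks in genes with 1 to 54.5% in genes with 7 or more. The noncoding genes Lncenc1, with 3 Cfg1 and 0 Cfg2 peaks, and Kcnq1ot1, with 3 and 1, held windows between 34.7 and 49.5% GC.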
